A study of Homo sapiens with 6 samples.

Results

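The interleukin-1 (IL-1) family and its receptors were followed in HSC-4 cells, an established human oral squamous cell carcinoma line, after inhibition of Notch signalling. The 10 genes were taken by name, with no threshold on their values: the agonist ligands IL1A, IL1B, IL18, IL33 and IL36G, the receptor antagonists IL1RN and IL36RN, and the receptor chains IL1R1, IL1R2 and IL1RAP. They are 10 of the 58884 genes in the count tables. RNA-seq libraries came from 3 samples treated with 50 µM DAPT for 24 h and from 3 control samples of the same line. DAPT is a γ-secretase inhibitor, which blocks the cleavage that releases the active intracellular part of Notch receptors. By the study's methods the controls received the DMSO vehicle, whereas the labels say only that they were controls. All libraries come from 1 cell line with no other alteration stated, and nothing in the labels says that the replicates were separate cultures. The p-values of single genes therefore set each difference against the spread between these samples, estimated with information shared across all genes tested.

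IL-1 family cytokines are alarm signals of epithelia. An agonist binds its own receptor chain, which then recruits a shared accessory chain, encoded by IL1RAP for IL-1, IL-33 and IL-36, and the pair signals through MyD88 and IRAK kinases to NF-κB and MAP kinases. Antagonists such as those encoded by IL1RN and IL36RN occupy the receptor without recruiting that chain, and the decoy receptor IL1R2 binds IL-1 without signalling. IL-1β and IL-18 are made as precursors that caspase-1 cuts, while the IL-1α precursor is already active. In squamous epithelium, keratinocytes are a known source of several of these ligands.

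Total counts per library ranged from 12276313 to 16317672, so that 3 counts, taken here as the smallest signal, corresponded to between 0.187 and 0.248 CPM, counts per 1000000 after normalization. The Notch target genes HES1, HES4, HEY1 and NRARP all fell with DAPT, with log2 fold changes of -0.77, -1.48, -1.98 and -1.43 and groups that did not overlap. By fibroblast markers, 1 library stood apart before any member was considered. Control replicate 1 held all 8 fibroblast marker genes at higher levels than the other libraries, with summed levels of 580 CPM against 50.0 to 58.5 CPM. COL1A2 reached 215 CPM there against at most 2.02 CPM elsewhere. The result of each of the 8 members tested is therefore also given without this library, and the part of these reads in the results was not tested beyond that. All 12 squamous epithelial markers were detected, with KRT14 near the floor after DAPT (mean 0.443 CPM). Their summed level was 7670 to 7997 CPM in controls and 5409 to 5631 CPM with DAPT. Of the 12, 9 were called lower and 1, CDH1, higher, beside 18.0% lower and 17.2% higher over all genes tested. KRT14, 1 of the 9, passed the low-count filter through its control libraries (48, 49 and 36 reads, against 11, 0 and 8 with DAPT). Leukocyte markers summed to 8.92 to 13.1 CPM, nearly all of it CD14, and 6 of the 10 were at 0 in every library. Of the 6 endothelial markers only VWF passed the low-count filter, at a mean of 1.05 CPM in controls and 0.792 CPM with DAPT. Whether these marker differences have a part in the members' changes was not tested. In bulk RNA, fewer cells of a type and less RNA per cell cannot be told apart.

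Of the 10 members, 8 passed the filter on low counts and were tested. With DAPT 1 of them rose, IL1A, and 4 fell, IL1B, IL18, IL36G and IL1RAP, at an adjusted p under 0.05 (edgeR's quasi-likelihood test, Benjamini-Hochberg adjustment across 15001 genes). Across all genes tested, 17.2% were called higher and 18.0% lower, beside 1 of 8 and 4 of 8 members. One of these 4, IL36G, passed the filter through its control libraries, and requiring at least 10 counts in every library, which removes it, left 3 lower. The median log2 fold change of the 8 members was -0.32, against 0.01 over all genes tested. Apart from IL36G the called changes were small, between 0.23 and 0.52 on the log2 scale in size. The same 5 members had groups that did not overlap, an outcome seen in 46.3% of all genes tested. Without control replicate 1 the counts were again 1 higher and 4 lower.

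**Figure D1:**
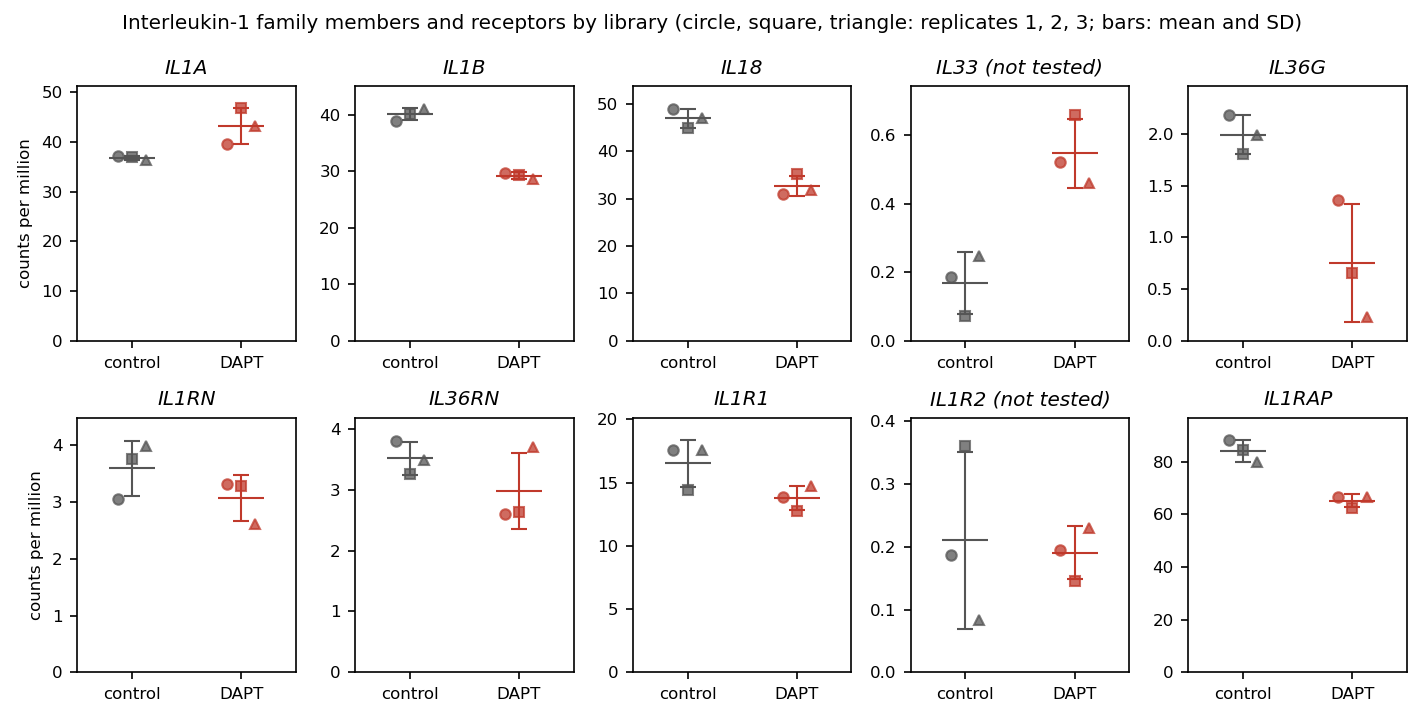
CPM of each member by library, with an axis from 0 and its own scale for each gene; points are libraries, long dashes the group mean and whiskers the SD (n = 3). IL1B, IL18, IL36G and IL1RAP lie lower in every DAPT library, IL1A and the barely detected IL33 lie higher, and the other genes overlap between groups.

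Levels between genes can be compared only per exonic length, and for this the counts were divided by gene length and scaled to the same total in each library (TPM). The length counts every annotated exon, and the transcripts in use were not resolved, so the order depends on it. By CPM, without this division, the controls had more IL1B (mean 40.1) than IL1A (36.8). In controls the order was IL18 (62.7 TPM), IL1A (60.3), IL1B (45.1), IL1RAP (25.4), IL1R1 (8.09), IL36G (5.06), IL1RN (3.85), IL36RN (3.71), IL1R2 (0.247) and IL33 (0.182). The ranges of the 3 control libraries overlapped for IL18 and IL1A, for IL1RN and IL36RN and for IL1R2 and IL33, so those neighbours were not separated. The antagonist IL1RN was thus far below both of the agonists it opposes. With DAPT, IL1A moved to the first place at 76.2 TPM, with IL18 next at 46.9 TPM and no overlap between their libraries.

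The IL-1 agonists IL1A and IL1B are neighbours on chromosome 2 (GRCh38) and changed in opposite directions. IL1A, encoding IL-1α, lies on the minus strand at chr2:112773915-112784590, and IL1B, encoding IL-1β, on the same strand at chr2:112829751-112836903, with 45.2 kb between them. IL1A was measured at 37.1, 37.0 and 36.3 CPM in the control libraries and at 39.6, 46.9 and 43.3 CPM in the DAPT libraries. Every DAPT library was above every control library, and DAPT replicate 1 was the closest to the controls. The rise was 1.17-fold (log2 fold change 0.23, SE 0.07, adjusted p = 0.019), and 0.24 with an adjusted p of 0.0142 without control replicate 1. This call was not stable: it was lost without control replicate 3 (adjusted p = 0.0589), without DAPT replicate 2 (adjusted p = 0.123) and with DESeq2 (adjusted p = 0.0569).

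IL1B gave 39.0, 40.2 and 41.1 CPM in controls and 29.8, 29.4 and 28.6 CPM with DAPT. The groups were well separated and each varied little. The fall was 26.9% (log2 fold change -0.45, SE 0.07, adjusted p = 3.59e-05), and -0.47 without control replicate 1. It held in all 13 alternative fits, between -0.47 and -0.41.

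The ratio of IL1A to IL1B within a library does not depend on library scaling. This ratio was added after the values of both genes had been seen, so it is a description with no test. Per exonic kilobase it was 1.39, 1.34 and 1.29 in the control libraries and 1.93, 2.33 and 2.21 in the DAPT libraries. The level of the ratio depends on the gene lengths used, whereas its difference between groups does not. The lowest DAPT library was above the highest control library. The mean log2 ratio rose from 0.42 ± 0.05 to 1.10 ± 0.14 (SD, n = 3 each), a difference of 0.68, or 0.71 without control replicate 1.

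To show the regions at the starts of these genes, bases upstream of RefSeq starts (GRCh38.p14) are given for the neighbours with opposite changes, IL1A and IL1B, and for IL36G and IL1RAP, the agonist with the largest fall and the receptor chain that was called. Each is written 5′ to 3′ on the gene's own strand and comes from the 250 bases before a start, less any base that the count files or GENCODE annotate as exon. The RefSeq starts lie inside the gene models of the count files, by 97 bases for IL1A, 124 for IL1B and 34 for IL1RAP, and by 4803 bases for IL36G, whose printed bases are therefore intronic in the longest model. The IL1A bases are chr2:112784591-112784743 (minus strand), the IL1B bases chr2:112836904-112837029 (minus strand), the IL36G bases chr2:112977756-112977885 (plus strand) and the IL1RAP bases chr3:190513835-190514050 (plus strand). The last 2 lines show matches to the AP-1 motif TGANTCA, in capitals, at chr2:112784494-112784519 for IL1A (minus strand), inside its first exon in the count files, and at chr2:113117734-113117759 for IL1RN (plus strand).
IL1A: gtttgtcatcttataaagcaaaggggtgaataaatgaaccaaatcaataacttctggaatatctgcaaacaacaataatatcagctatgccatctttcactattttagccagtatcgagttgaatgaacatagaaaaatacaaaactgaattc
IL1B: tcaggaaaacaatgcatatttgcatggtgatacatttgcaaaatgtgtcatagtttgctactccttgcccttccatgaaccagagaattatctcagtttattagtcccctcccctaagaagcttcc
IL36G: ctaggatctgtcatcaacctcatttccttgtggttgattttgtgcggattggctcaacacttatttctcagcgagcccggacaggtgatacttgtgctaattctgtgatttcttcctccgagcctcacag
IL1RAP: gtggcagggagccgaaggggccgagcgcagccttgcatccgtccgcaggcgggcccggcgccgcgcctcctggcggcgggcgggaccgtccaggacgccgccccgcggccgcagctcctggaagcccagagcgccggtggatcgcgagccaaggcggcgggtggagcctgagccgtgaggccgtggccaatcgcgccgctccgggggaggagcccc
IL1A site: aaggcgaagaagacTGACTCAggctt
IL1RN site: ggtttctgctagccTGAGTCAccctc

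Windows of 250 bases were found for 9 of the 10 members, 18 windows in all, and were searched on both strands for 3 motifs: TGANTCA (AP-1), GTGGGAA (RBPJ, the DNA-binding partner of Notch) and GGNNTTTCC (NF-κB). The letters of the RBPJ and NF-κB motifs can overlap, but no matches in these windows did. The AP-1 motif was found for IL1A, where it ends 6 bases before the RefSeq start used (a further match lies 49 bases before its other annotated start), and for IL1RN, 217 bases before 1 of its 3 annotated starts. The NF-κB motif was found for 2 members, IL1RN and IL1R2, and the RBPJ motif for none. Counted by window, the motifs were in 3 (AP-1), 0 (RBPJ) and 2 (NF-κB) of the 18 member windows. The 2 windows of IL1A overlap and share a match. Among 35116 windows of this length the motifs occurred in 6.57% (AP-1), 5.43% (RBPJ) and 5.48% (NF-κB). The 250-base windows of IL1B, IL36G and IL1RAP held none of the 3 motifs, which says only that these letters are not in these windows.

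IL18, which encodes the caspase-1-dependent cytokine IL-18, had the largest fall among the well expressed ligands. Its levels were 48.8, 44.9 and 47.0 CPM in controls and 31.0, 35.1 and 31.9 CPM with DAPT. The highest DAPT library remained below the lowest control library. The fall was 30.4% (log2 fold change -0.52, SE 0.07, adjusted p = 9.44e-06), and -0.49 without control replicate 1. All 13 alternative fits kept the call, between -0.58 and -0.48. IL18 lies on chromosome 11 (chr11:112143253-112164096), away from the chromosome 2 clusters.

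IL36G, which encodes the epithelial agonist IL-36γ (chr2:112973203-112985658, plus strand), had the largest change of the 8 members tested, at low counts. It had 35, 25 and 24 reads in the control libraries and 21, 9 and 3 in the DAPT libraries, or 2.18, 1.81 and 1.99 CPM against 1.36, 0.658 and 0.230 CPM. All DAPT libraries were lower, but they differed from each other far more than the controls did, and DAPT replicate 3 was at the floor of 3 reads. The gene passed the low-count filter through its control libraries, and its DAPT libraries alone would not have let it pass. The log2 fold change was -1.35 (SE 0.37, adjusted p = 0.00745), and -1.26 without control replicate 1 (adjusted p = 0.0195). The size rests on single DAPT libraries, since it was -2.13 without DAPT replicate 1 and -0.95 without DAPT replicate 3, with the call kept in both (adjusted p = 0.000441 and 0.0379).

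IL33, encoding a nuclear alarmin released by damaged cells (chr9:6215786-6257983), was too low to be tested. It had 3, 1 and 3 reads in the controls and 8, 9 and 6 reads with DAPT. No control library exceeded the floor of 3 reads and every DAPT library did. Pooled over the libraries of a group, the ratio of DAPT to control was 3.28, with an exact 95% interval of 1.36 to 9.04 that covers counting error only. In a fit with no filter on low counts its adjusted p was 0.0512. DESeq2 gave it an unadjusted p of 0.0681 and no adjusted p.

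The antagonists were low and neither passed the test. IL1RN, which encodes the IL-1 receptor antagonist, was at 3.05, 3.76 and 3.98 CPM in controls and 3.31, 3.29 and 2.61 CPM with DAPT, and the groups overlapped. Its log2 fold change was -0.21 (SE 0.19, adjusted p = 0.417), and -0.32 without control replicate 1 (adjusted p = 0.223). IL36RN, which encodes the IL-36 receptor antagonist, was at 3.80, 3.25 and 3.48 CPM in controls and 2.60, 2.63 and 3.69 CPM with DAPT. DAPT replicate 3 lay within the control range while the other DAPT libraries lay below it. Its log2 fold change was -0.25 (SE 0.19, adjusted p = 0.335), -0.18 without control replicate 1 and -0.43 without DAPT replicate 3.

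The balance of antagonist and agonist RNA was compared within each library, in counts per exonic kilobase. The ratio of IL1RN to the sum of IL1A and IL1B was 0.0315, 0.0383 and 0.0406 in controls and 0.0363, 0.0323 and 0.0275 with DAPT. Antagonist RNA was thus a small share of agonist RNA in every library, and the groups overlapped. The log2 ratio differed by -0.20 (two-sided exact permutation test, p = 0.3), and by -0.31 without control replicate 1, -0.30 without DAPT replicate 1, -0.13 without control replicate 3 and -0.09 without DAPT replicate 3. The ratio of IL36RN to IL36G was 0.721, 0.743 and 0.722 in controls and 0.784, 1.6 and 5.77 with DAPT. All DAPT libraries were above the controls, with a wide spread that followed the few IL36G reads. The log2 ratio rose by 1.41 (two-sided exact permutation test, p = 0.1, the smallest possible), by 1.40 without control replicate 1, by 2.06 without DAPT replicate 1 and by 0.62 without DAPT replicate 3. IL36RN was not called, and IL36G passed the low-count filter through its control libraries. The rise of this ratio is therefore not a result separate from the fall of IL36G.

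**Figure D2:**
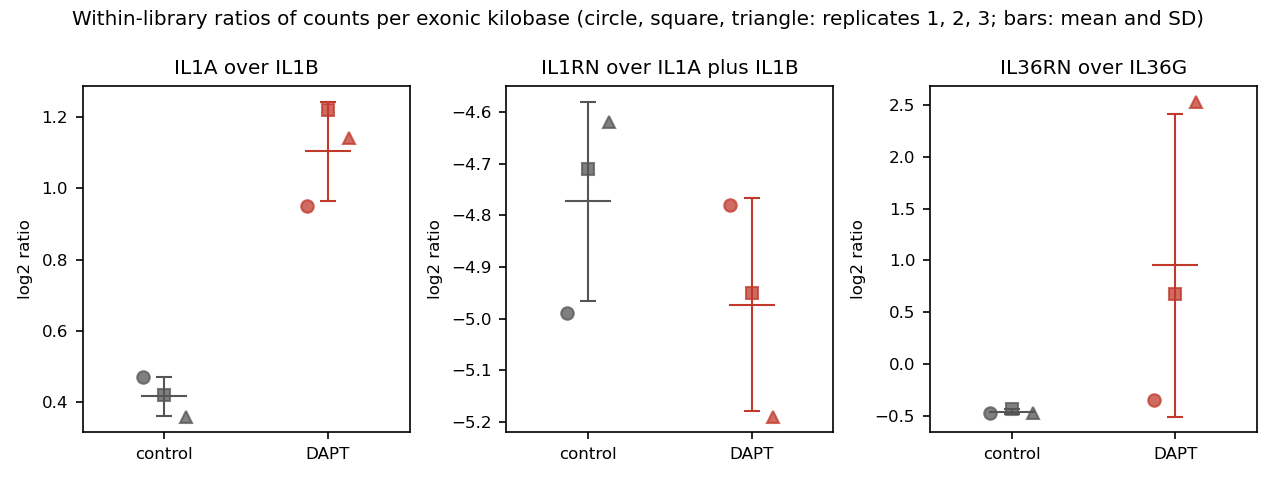
Log2 ratios within each library, each panel with its own scale; points are libraries, long dashes the group mean and whiskers the SD (n = 3). IL1A over IL1B separates the groups (mean 0.42 in controls, 1.10 with DAPT), IL1RN over its agonists overlaps, and IL36RN over IL36G is higher but spread widely with DAPT.

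Among the receptors, the accessory chain IL1RAP (chr3:190514051-190659750, plus strand) was the most abundant and the one called. It was at 88.1, 84.4 and 79.8 CPM in controls and 66.6, 62.4 and 66.6 CPM with DAPT. The groups were clearly separated. The fall was 22.6% (log2 fold change -0.37, SE 0.06, adjusted p = 3.04e-05), and -0.33 without control replicate 1. All 13 alternative fits kept it, between -0.41 and -0.32. Another gene model shares 4.63% of the exonic bases of IL1RAP on its strand, and reads in that stretch are uncertain.

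IL1R1, the signalling receptor of IL-1 (chr2:102064544-102179874, plus strand), narrowly missed the threshold. It was at 17.6, 14.4 and 17.6 CPM in controls and 13.9, 12.8 and 14.7 CPM with DAPT. Control replicate 2 lay within the DAPT range and the other controls above it. The log2 fold change was -0.26 (SE 0.10, adjusted p = 0.0508). Without control replicate 2 it was -0.36 (adjusted p = 0.0154), and without control replicate 1, the library with fibroblast marker reads, -0.20 (adjusted p = 0.152).

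IL1R2, the decoy receptor (chr2:101991960-102028544, plus strand), was at 3, 5 and 1 reads in controls and 3, 2 and 3 reads with DAPT. Only 1 of the 6 libraries exceeded 3 reads, so a change was not detectable at this depth. Its log2 ratio to IL1R1 differed by 0.27 between groups (two-sided exact permutation test, p = 0.7). Resting on those few reads, it was 0.79 without control replicate 2 and -0.19 without control replicate 3.

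**Figure D3:**
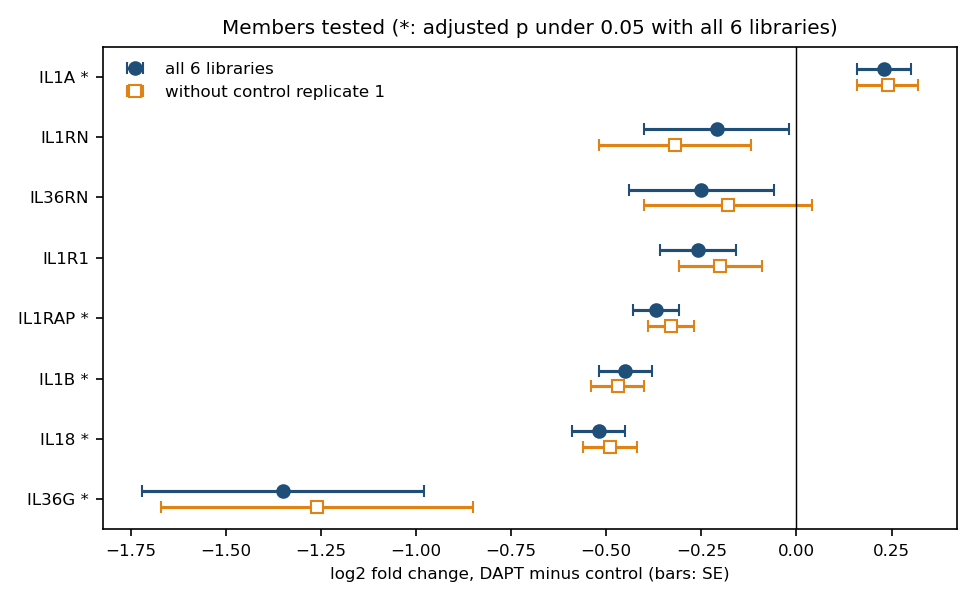
Log2 fold change (DAPT minus control) of the 8 members tested, with SE as bars, from all 6 libraries (circles) and without control replicate 1 (squares). IL1A lies above 0 and the others below, from -0.21 for IL1RN to -1.35 for IL36G, and leaving out the library shifts no member across 0.

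In the chromosome 2 ligand cluster, which spans 360 kb from IL1A to IL1RN, the members were the sole genes past the low-count filter. IL37, IL36A, IL36B and IL1F10 lie between them and had at most 3 reads in any library. The nearest tested genes outside were CKAP2L, a mitotic spindle protein, at a log2 fold change of -0.08 (adjusted p = 0.268), and PSD4, an exchange factor for ARF6, at -0.09 (adjusted p = 0.27). In the receptor cluster, the flanking genes MAP4K4, a kinase, and IL1RL2, the IL-36 receptor, were at -0.06 (adjusted p = 0.368) and -0.29 (adjusted p = 0.253). None of these 4 flanking genes passed the threshold with all 6 libraries, while PSD4 did without control replicate 1 (-0.14, adjusted p = 0.0415).

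**Figure D4:**
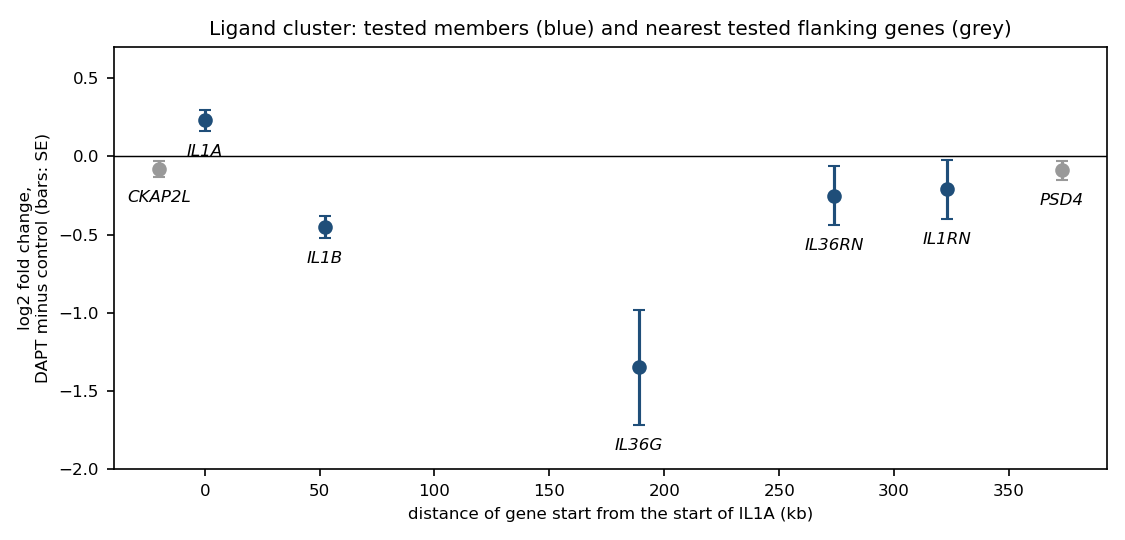
Log2 fold change (DAPT minus control, SE as bars) of the tested genes in and beside the ligand cluster, against the distance of each gene start from that of IL1A in kb. IL1A at 0.23 and IL1B at -0.45 stand side by side on opposite sides of 0, and the flanking genes CKAP2L and PSD4 lie near 0.

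By the pattern over the 6 libraries, the genes most like IL1A in log2 CPM were RFXAP, MMUT and VPS54, with Pearson's r of 0.9958, 0.9946 and 0.9936 among 14198 genes. Those most like IL1RAP, the called lower member with the highest CPM, were NCOA4, ITGA4 and NOP58, with r of 0.9977, 0.9975 and 0.9962. These are descriptions over 6 points that share the group difference, and 583 genes reached an r over 0.95 with IL1RAP against 88 with IL1A.

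Of 12 further ligands, receptors and binding proteins of the family, 4 passed the filter. SIGIRR, a receptor of the family that restrains IL-1 signalling, rose from 15.8 ± 1.30 to 20.9 ± 0.265 CPM (SD, n = 3 each; log2 fold change 0.40, SE 0.09, adjusted p = 0.00105). It was the 1 called of these 4 and none was called lower, beside 17.2% higher and 18.0% lower over all genes tested. IL1RL2 is given above; IL18R1, the IL-18 receptor chain, and IL18BP, which neutralizes IL-18, were named after their values had been seen and were at 0.24 (adjusted p = 0.19) and 0.16 (adjusted p = 0.257). Of the other 8, 7 had at most 3 reads in every library, among them IL1RL1, the IL-33 receptor.

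Genes for cytokine processing and release changed in both directions. Of 31 such genes 24 were tested, with a median log2 fold change of 0.01. Of these, 6 were called higher (25.0%) and 7 lower (29.2%), beside 17.2% and 18.0% over all genes tested. CASP1, the protease that cuts the IL-1β and IL-18 precursors, fell from 44.3 ± 1.94 to 35.2 ± 1.52 CPM (-0.33, SE 0.07, adjusted p = 9.63e-04), and its adaptor PYCARD from 43.9 ± 3.65 to 36.5 ± 0.665 CPM (-0.26, adjusted p = 0.00881). GSDMC, a pore-forming gasdermin, fell by 0.77 and the protease CTSS by 0.43 on the log2 scale, while GSDMB, another gasdermin, rose by 0.35 and CARD8, an inflammasome sensor, by 0.30. HAX1 and CASP8 rose by 0.24 and 0.20, the last with an adjusted p of 0.0495. The higher count was not stable, from 2 genes without DAPT replicate 1 to 7 without control replicate 1 over the libraries left out, and 9 higher and 6 lower when scaled by library size alone. The inflammasome sensors NLRP3 and NLRC4 had at most 0.0460 CPM on average in either group. Other sensors were detected: NLRP1 was at 18.0 CPM in controls and 19.7 CPM with DAPT (0.13, adjusted p = 0.276). AIM2 was at 1.21 and 0.594 CPM and was called lower (-1.04, adjusted p = 0.0381). It had 27, 12 and 13 reads in controls and 8, 12 and 5 with DAPT, and passed the low-count filter through its control libraries. Requiring at least 10 counts in every library, which removes AIM2, left 6 processing genes lower. Without control replicate 1 AIM2 was not called (-0.69, adjusted p = 0.236).

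In the signalling chain from receptor to NF-κB and MAP kinases, 39 of 39 genes were tested, with a median of 0.08. Here 12 were called higher (30.8%) and 5 lower (12.8%), beside 17.2% and 18.0% over all genes tested. The largest rises were those of the NF-κB subunit RELB (0.46, adjusted p = 9.42e-04), the scaffold SQSTM1 (0.45, adjusted p = 3.66e-07), SIGIRR (0.40) and the ubiquitin ligase PELI2 (0.36, adjusted p = 0.00702). Its relative PELI3 fell by 0.41 (adjusted p = 4.59e-04), ECSIT by 0.29, the kinase MAP2K6 by 0.27 and the ubiquitin-conjugating enzyme UBE2N by 0.24. Without control replicate 1 the calls were 12 higher and 6 lower, with DESeq2 5 higher and 3 lower, and with scaling by library size alone 17 higher and 4 lower.

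Of 44 listed genes known to respond to NF-κB and IL-1, 43 were found, as SOD2 had no match by symbol. Of the 43, 36 were tested, with a median of -0.12. Among them 8 were called higher (22.2%) and 15 lower (41.7%), beside 17.2% and 18.0% over all genes tested. Without control replicate 1 the list had 8 higher and 14 lower. The falls were the larger: CCL2, a monocyte chemokine, fell from 12.3 ± 0.923 to 1.65 ± 0.136 CPM (-2.90, adjusted p = 3.69e-12), the matrix proteases MMP10 and MMP1 by 2.42 and 2.05, and PI3, the elastase inhibitor elafin, by 1.70 on the log2 scale. In the other direction LCN2, an iron-sequestering antimicrobial protein, rose by 0.81 (adjusted p = 1.36e-09), and TRAF1, the cytokine IL6 and the prostaglandin synthase PTGES by 0.51 each. The list did not move one way, and these counts say nothing about which of the genes depend on IL-1 in these cells.

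**Figure D5:**
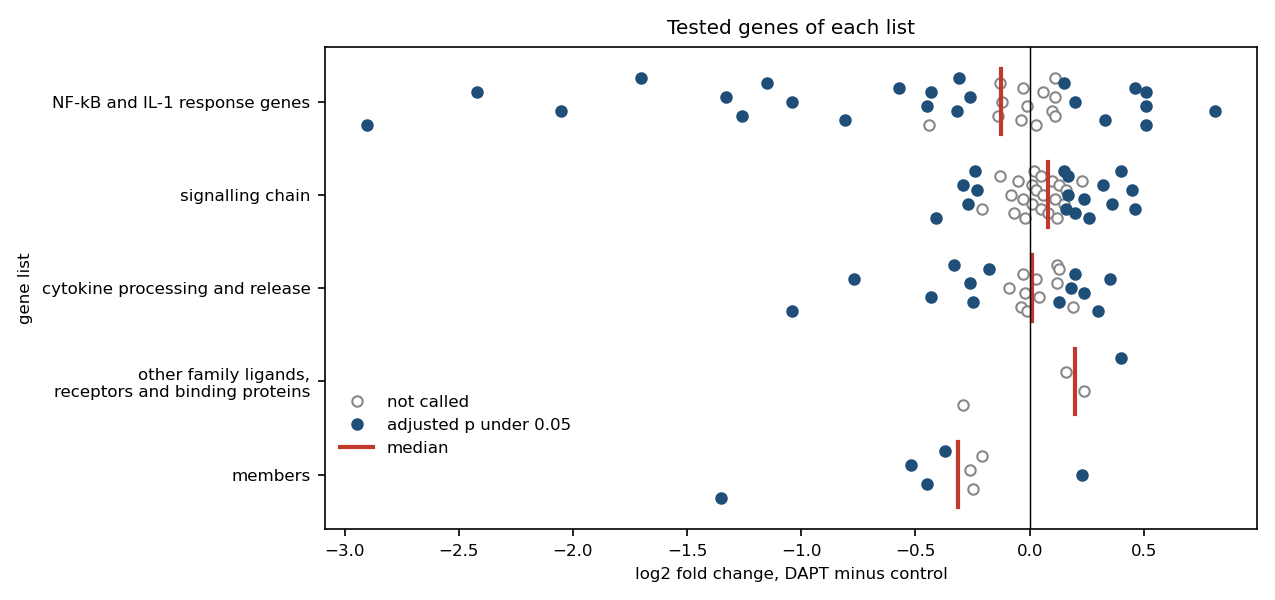
Log2 fold change (DAPT minus control) of each tested gene in the 5 gene lists; filled points passed an adjusted p of 0.05, open points did not, red bars are medians and the vertical offset within a row carries no meaning. The members lie mostly below 0 (median -0.32), the signalling chain slightly above (0.08), and the response genes spread from -2.90 to 0.81.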

How the data were processed

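The authors trimmed single-end reads of directional libraries, aligned them to GRCh38 with HISAT2 and deposited raw counts of reads per Ensembl gene, made with featureCounts 1.6.3 per the file headers; the labels also list HTSeq and DESeq2. The letters GM in the count columns of the controls are not explained in the sources used here. From these counts, edgeR 4.0.16 (R 4.3.3) gave CPM with TMM scaling and, after its low-count filter (minimum count 10), quasi-likelihood F tests of DAPT against control over 15001 genes. SE is the log2 fold change divided by the root of F. Gene coordinates are those of the count files. The members and gene lists were chosen with earlier results of these data known. Named genes are all members, 4 Notch targets, per list at most the 4 largest called changes in each direction with a mean of at least 1 CPM, cluster neighbours, and the 3 genes most like the called member with the highest mean CPM in each direction. Markers, NLRP1, AIM2 and the undetected NLRP3, NLRC4, IL1RL1 and cluster genes were named after their values were seen. For ratios 0.5 was added to each count. Within groups, no 2 libraries agreed within sampling noise (chi-square per degree of freedom 1.57 to 5.34). Replicate 1 differed most in both groups. Control replicate 1 gave 5.34 and 5.25 against the other controls, which gave 1.57 with each other. DAPT replicate 1 gave 4.07 and 3.89 against the other DAPT libraries, which gave 1.8. In counts simulated for this comparison with 2-fold changes, 87.2% of 196 changed genes were recovered among 14814 tested, and 2.84% of calls were false. Smaller changes, such as those of all called members except IL36G, were not simulated, so these rates do not cover them. The simulation also changed far fewer genes than the 2574 called higher and 2707 called lower here. It held no library that differed from the rest of its group, so 2.84% is not the false-call rate of the real comparison. Alternatives were RLE or no scaling factors, other filters, limma-voom 3.58.1, DESeq2 1.42.0, stricter thresholds, each library left out and a replicate block.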

Additional observations from a re-analysis of the deposited data

How the results depend on the processing

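None of the 8 members tested changed direction under any alternative; IL33 and IL1R2 could be fitted only with no filter on low counts and with DESeq2. IL1B, IL18 and IL1RAP passed the threshold in all 13 alternative fits, and IL36G in all 12 that could include it, since requiring 10 counts in every library removed it. The count of members called higher, 1, fell to 0 with DESeq2, at an adjusted p under 0.01 and at 2-fold or more, and ranged from 0 (without control replicate 3 or DAPT replicate 2) to 1 over the libraries left out. At 2-fold or more 1 member was lower. IL1R1 passed with RLE scaling (-0.27, adjusted p = 0.0455) and without control replicate 2 (adjusted p = 0.0154). In the other lists, the 2-fold limit left 0 higher in each, 1 lower for processing and release, 0 for the signalling chain and 8 for the response genes. At an adjusted p under 0.01, 2 processing genes and 6 signalling genes were higher. Processing genes called higher ranged from 2 (without DAPT replicate 1) to 7 over the libraries left out, with 3 without control replicate 2, control replicate 3 or DAPT replicate 2. DESeq2 called 5 signalling genes higher and 3 lower. The cause of these shifts was not tested, other than that the stricter limits keep fewer genes by construction.

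Same-numbered replicates did not deviate together (correlations 0.0173, 0.0252 and 0.00382), so the numbers were not taken as pairs. With a replicate block, 1 member was called higher and 5 lower, the added gene being IL1R1 (-0.26, adjusted p = 0.0405). The library totals limit IL33, IL1R2 and IL36G most: at 3 to 35 reads for IL36G, single libraries set the size of the change.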
